A study of Mus musculus with 17 samples.

Results

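The postsynaptic density scaffold and signalling genes described here are 41 genes, chosen by symbol and matched through their Ensembl identifiers to the gene counts of 17 mouse hippocampal libraries. The 41 were all among the 17615 genes that passed the filter on low counts, out of 55450 genes listed. They comprise 5 membrane-associated guanylate kinases (MAGUKs), 4 SAPAP proteins, 5 Shank and Homer proteins, 7 other adaptors, 6 genes for kinases, a phosphatase, a phosphatase-targeting scaffold and a calmodulin-binding protein, 7 adhesion molecules and 7 regulators of small GTPases and actin. The list is wider than its name. Neurexins act mainly on the presynaptic side, and gephyrin (Gphn) and Nlgn2 belong to inhibitory rather than glutamatergic contacts.

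RNA was taken from the hippocampus of adult mice, 1 library per sample, and counted per gene. The study made mice epileptic with kainic acid placed in the amygdala and then gave them a CRISPR activation system in 2 viral vectors, injected in the right ventral hippocampus: a doxycycline-dependent dCas9 fused to the VP64 activator, and a guide RNA vector in which the Camk2a promoter, active in excitatory neurons, drove the doxycycline-dependent activator and a red reporter. The sgKcna1 guide directs the activator to the promoter of Kcna1, which encodes the potassium channel subunit Kv1.1, and the sgLacZ guide has no mouse target. The groups were control mice with sgLacZ (n = 5), epileptic mice with sgLacZ (n = 6) and epileptic mice with sgKcna1 (n = 6). Per the study's methods the mice were C57BL/6J of both sexes, 2 to 3 months old at the start, the controls were sham-treated, and doxycycline was given in the food for the last 2 weeks. Every group carried the vectors, and non-epileptic mice with sgKcna1 were not analysed here. The RNA came from tissue and not from sorted transduced cells, so that fewer cells of a type and less RNA per cell cannot be told apart.

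The postsynaptic density is the protein mat beneath the membrane of an excitatory synapse. MAGUKs such as PSD-95 (Dlg4) bind glutamate receptors at the surface, SAPAP proteins (Dlgap1 to Dlgap4) couple the MAGUKs to Shank proteins, and Shank and Homer proteins form a deeper lattice that reaches the actin cytoskeleton. Calcium entering through NMDA receptors acts on this mat through the kinase CaMKII and the phosphatase calcineurin, while neuroligins, LRRTMs and neurexins hold it opposite the transmitter release site.

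Depth ran from 11839240 to 28311328 reads in genes, at which a count of 3 reads equalled 0.106 to 0.253 CPM (counts on a scale common to all libraries), a floor that covers counting error only. All values below are CPM after TMM scaling (edgeR's trimmed mean), and every test is edgeR's two-sided quasi-likelihood test with Benjamini-Hochberg adjustment over the 17615 genes. A gene is called where its adjusted p is under 0.05. Kcna1 itself lay between 25.5 and 44.0 CPM in control libraries (median 34.6), between 16.9 and 56.7 in epileptic sgLacZ libraries (median 27.6) and between 13.9 and 132.5 in epileptic sgKcna1 libraries (median 19.1). Its log2 fold change in sgKcna1 against epileptic sgLacZ was 0.32 (adjusted p = 0.706), so that the targeted gene did not tell the libraries labelled sgKcna1 from the epileptic sgLacZ libraries. By quantitative PCR the study found more Kcna1 RNA in injected than in contralateral hippocampi of epileptic sgKcna1 mice. It too saw no clear rise by RNA sequencing, and proposed that few Kcna1 reads may be the reason. Libraries differed in quality measures. The share of unmapped reads was 24.1% ± 3.38 (SD, n = 5) in control, 18.6% ± 5.01 (n = 6) in epileptic sgLacZ and 25.2% ± 8.15 (n = 6) in sgKcna1 libraries, with the lowest in epileptic sgLacZ replicate 4 (11.0%) and the highest in sgKcna1 replicate 12 (41.5%). In 6 libraries (2 control, 1 epileptic sgLacZ and 3 sgKcna1) both Xist and the summed Y-linked genes exceeded 1 CPM, whereas a mouse normally shows only one of these signals. By the more abundant of these signals 2 of 5 control, 4 of 6 epileptic sgLacZ and 2 of 6 sgKcna1 libraries were female. Neuronal identity was clear: 9 of 10 pan-neuronal markers were tested and summed to 6304 to 9695 CPM in every library, while choroid plexus and ependymal markers ranged from 300.4 to 12540 CPM.

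The genes started from very different abundances. Compared per kilobase of exon, in control libraries Nrgn (neurogranin, which binds calmodulin in spines) stood at 3188 CPM per kb, Ppp3ca (a calcineurin catalytic subunit) at 941, Camk2a at 322, Ppp1r9b (spinophilin) at 132, Dlg4 at 122 and Camk2b at 100.3. These were the 6 members over 100 CPM per kb. At the other end 16 members were under 10, down to Dlgap2 at 1.48 and Grip2 at 0.889. Within the Shank family the control level per kb ran from Shank1 (38.2) to Shank3 (8.48) and Shank2 (7.82), and within the SAPAP family from Dlgap3 (60.8) and Dlgap1 (48.2) to Dlgap4 (28.5) and Dlgap2. The members whose counts could have been affected by an overlapping gene were Homer3, Nrxn2, Homer2, Shank1 and Iqsec1: the strand-specific counts of Homer3 added up to 4.42 times its unstranded count, those of the other 4 to between 1.06 and 1.21 times.

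RefSeq promoter windows of GRCm38.p6 (250 bases upstream of the listed start farthest upstream) were found for 32 of the 41 members. The windows of members were rich in G and C, with a median of 67.2% against 52.0% over 27025 genes. These 27025 are all genes with a window, whether or not they were among the 17615 tested. The members were all tested, and a background of tested genes alone was not made. The GC box letters GGGCGG on either strand occurred in 17 of the 32, against 33.0% of all windows. The palindromic E-box CACGTG occurred in 1 of 32 against 6.04% of all windows, and the cyclic AMP response element TGACGTCA in 0 of 32 against 1.60%. Of the members called below, 4 of the 5 higher ones with a window held a GC box, as did 0 of the 2 lower ones with a window. Of these 4 windows with a GC box, those of Shank3 and Iqsec1 lie inside the annotated span of the gene. Those of Homer3 and Iqsec2 lie partly inside it. The same holds for some uncalled members, such as Dlg2, Kalrn and Gphn. The shares above are thus not those of the sequence before the first start of each gene. These are letters in a window and not binding sites. The windows of 2 members that were higher in epileptic sgLacZ mice (Shank3 and Ppp1r9b) and of 2 that were lower (Nrxn3 and Dlgap1) are shown 5′ to 3′, all on the plus strand, with GC boxes in capitals, to let their base composition be seen. Those of Shank3 and Nrxn3 lie inside the annotated span of the gene, since other transcripts start farther upstream. They are therefore not the sequence before the first start of the gene. The span of Nrxn3 begins at 88722701 and its window at 88794254, and it is 1 of the 2 windows of lower members counted above. Whether that window acts as a promoter was not tested.
Shank3, chr15:89499358-89499607: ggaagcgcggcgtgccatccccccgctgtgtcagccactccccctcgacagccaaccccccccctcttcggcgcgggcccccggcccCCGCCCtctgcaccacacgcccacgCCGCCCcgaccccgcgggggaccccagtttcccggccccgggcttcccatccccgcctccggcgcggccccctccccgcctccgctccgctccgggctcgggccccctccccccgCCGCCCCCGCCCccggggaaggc
Ppp1r9b, chr11:94990962-94991211: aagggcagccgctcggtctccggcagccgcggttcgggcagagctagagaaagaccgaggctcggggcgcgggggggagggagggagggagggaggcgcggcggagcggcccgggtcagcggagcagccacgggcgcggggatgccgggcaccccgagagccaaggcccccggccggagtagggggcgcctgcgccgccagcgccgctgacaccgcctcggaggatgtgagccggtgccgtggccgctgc
Nrxn3, chr12:88794254-88794503: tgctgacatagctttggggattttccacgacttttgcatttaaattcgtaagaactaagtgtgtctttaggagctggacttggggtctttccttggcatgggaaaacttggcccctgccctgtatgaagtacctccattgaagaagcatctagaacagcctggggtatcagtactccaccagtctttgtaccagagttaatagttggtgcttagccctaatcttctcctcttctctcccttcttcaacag
Dlgap1, chr17:69968823-69969072: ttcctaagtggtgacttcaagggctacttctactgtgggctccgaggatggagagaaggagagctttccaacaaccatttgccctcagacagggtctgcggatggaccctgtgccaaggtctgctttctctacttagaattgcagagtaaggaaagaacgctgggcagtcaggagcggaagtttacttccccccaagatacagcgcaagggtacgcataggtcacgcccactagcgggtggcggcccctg
The window of Shank3 was 82.4% G and C and that of Ppp1r9b 78.0%, against 45.6% for Nrxn3 and 55.2% for Dlgap1.

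The comparison of epileptic sgLacZ with control sgLacZ mice asks what epilepsy changes when no gene is activated. Of the 41 members 6 were called higher and 4 lower. Shank3, Homer3 (uncertain, since it overlaps another gene), Dlgap2 and Iqsec2 were raised by more than 2-fold, Ppp1r9b and Iqsec1 by less, and Nrxn3, Ppp3ca, Nlgn3 and Dlgap1 fell. The called members were 24.4% of the 41, beside 11% of all tested genes (7.26% higher and 3.76% lower). At an unadjusted p under 0.05 there were 15 members higher and 7 lower, 22 in all, beside 18.8%, 15.9% and 34.7% of all genes. Of the 41 log2 fold changes 29 were positive and 12 negative, with a median of 0.17 against 0.02 over all genes.

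**Figure D1:**
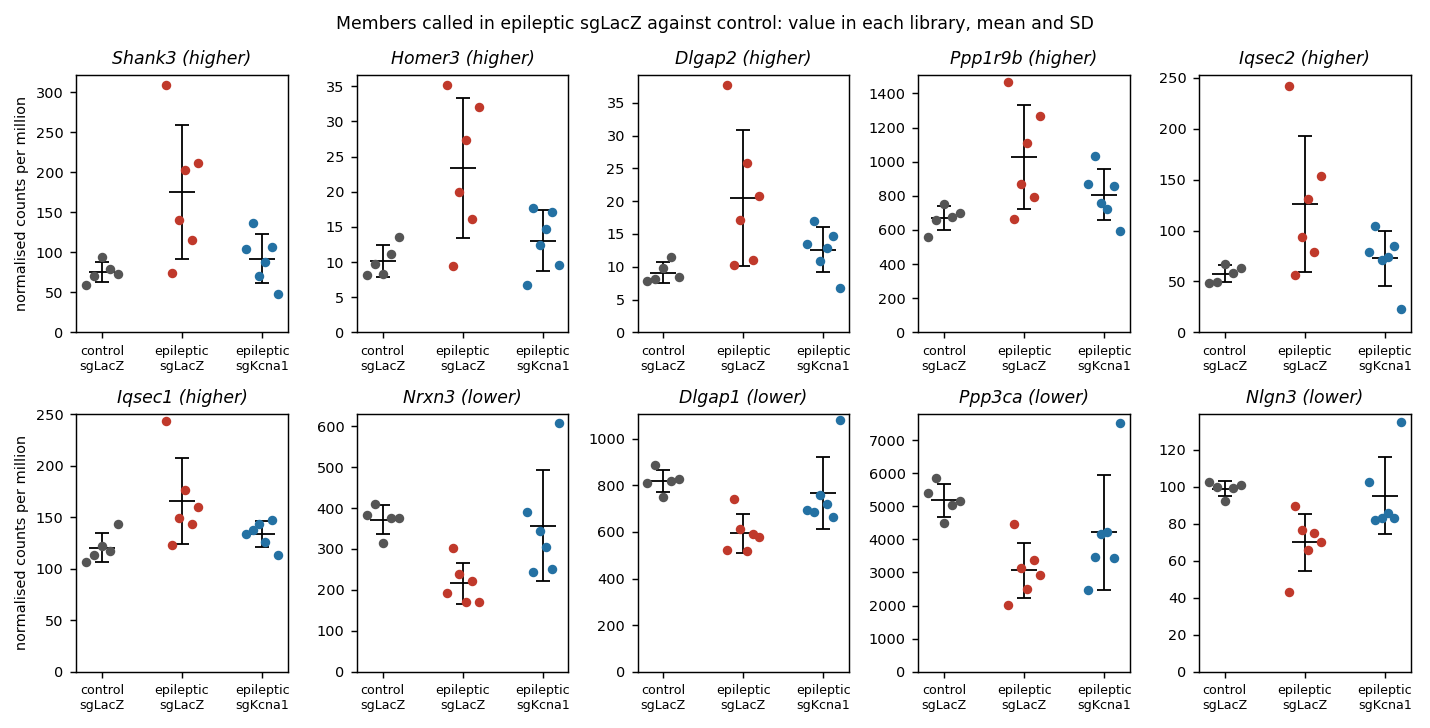
Normalised CPM of the 10 members called in epileptic sgLacZ against control mice. Points are libraries, ordered by replicate number, and black marks are the mean and SD (n = 5, 6 and 6), with the y axis from 0. The epileptic sgLacZ values of the 6 higher members spread widely and reach down into the control range, whereas those of the 4 lower members do not overlap the control values.

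Among the scaffolds, Shank3 (ENSMUSG00000022623, chr15:89493013-89560261, in GRCm38.p6 as are all positions here), a master scaffold of the deep layer, was measured at 59.7, 70.7, 94.2, 79.0 and 73.4 CPM in control libraries 13, 14, 15, 16 and 23. In epileptic sgLacZ libraries its lowest, median and highest values were 74.0, 172 and 309 CPM. The log2 fold change was 1.22 (SE 0.30, 2.33-fold, adjusted p = 0.0330). In all, 5 of the 6 epileptic sgLacZ libraries lay above the highest control library, and replicate 5, at 74.0 CPM, lay within the control range. Its family members were not called: the log2 fold change was 0.05 for Shank1 (adjusted p = 0.829) and 0.17 for Shank2 (adjusted p = 0.407).

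Dlgap2 (ENSMUSG00000047495, chr8:14095776-14853426), a SAPAP adaptor of low abundance, was at 7.79, 8.07, 9.74, 11.5 and 8.43 CPM in the 5 control libraries and at 10.2, 19.0 and 37.8 CPM (lowest, median, highest) in epileptic sgLacZ libraries, a log2 fold change of 1.17 (SE 0.29, adjusted p = 0.0333). Dlgap1 (ENSMUSG00000003279, chr17:69969073-70821413), the most abundant of the SAPAP genes in CPM, moved the other way. It was at 811, 887, 749, 818 and 829.2 CPM in control and at 517, 585 and 743 in epileptic sgLacZ libraries, every one of which lay below every control library, and its log2 fold change was -0.46 (SE 0.13, adjusted p = 0.0365). Dlgap3 and Dlgap4 had values of 0.46 and 0.12 and were not called (adjusted p = 0.0772 and 0.493).

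Homer3 (ENSMUSG00000003573, chr8:70282880-70294361), which links Shank to group I metabotropic glutamate receptors, was at 8.22, 9.74, 8.24, 11.1 and 13.6 CPM in control and 9.45, 23.7 and 35.2 CPM in epileptic sgLacZ libraries (log2 fold change 1.20, SE 0.30, adjusted p = 0.0333). This value is uncertain, because Homer3 overlaps another gene. With both strand counts added the log2 fold change was 0.29 and was not called (adjusted p = 0.0889). That sum, 4.42 times the unstranded count, also holds reads that may belong to the overlapping gene. Homer2 had a log2 fold change of -0.28 (adjusted p = 0.266).

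The 5 MAGUKs all had positive values and none was called. They ran from 0.15 for Magi2 and 0.19 for Dlg1 through 0.35 for Dlg3 and 0.40 for Dlg4 to 0.80 for Dlg2 (PSD-93), whose adjusted p of 0.0511 was the smallest of the 5. Dlg4, the principal MAGUK of the mature excitatory synapse, was at 569 ± 37.3 CPM (SD, n = 5) in control and 751 ± 134 CPM (n = 6) in epileptic sgLacZ libraries (adjusted p = 0.0634). The 7 other adaptors were not called either, with log2 fold changes between -0.63 and 0.57 and a median of -0.07. The largest in size was Pick1, a PDZ protein that binds AMPA receptor subunits, at -0.63 (adjusted p = 0.0644); Gphn, the scaffold of inhibitory synapses, was at 0.29 (adjusted p = 0.181) and Grip1 and Grip2 at -0.15 and 0.57. Cnksr2, Anks1b and Akap5 stayed between -0.13 and 0.08.

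In the calcium-dependent group Ppp3ca, a gene for a calcineurin catalytic subunit, fell, spinophilin rose and the 4 others were not called. Ppp3ca (ENSMUSG00000028161, chr3:136669714-136937727) was at 5392, 5862, 4493, 5027 and 5164 CPM in control libraries and at 2028, 3028 and 4464 CPM in epileptic sgLacZ libraries, again without overlap, and its log2 fold change was -0.76 (SE 0.23, adjusted p = 0.0436). Ppp1r9b (ENSMUSG00000038976, chr11:94991212-95006898), which brings protein phosphatase 1 to spines, was at 559, 659, 753, 674 and 699 CPM in control and 664, 989.6 and 1466 CPM in epileptic sgLacZ libraries (log2 fold change 0.62, SE 0.18, adjusted p = 0.0407). The CaMKII genes were not called: Camk2a, the most abundant kinase gene here, was at 2404 ± 127 CPM (SD, n = 5) in control and 2521 ± 446 CPM (n = 6) in epileptic sgLacZ libraries (log2 fold change 0.07, adjusted p = 0.687), and Camk2b and Camk2g were at 0.20 and 0.14. Nrgn was at -0.51 (adjusted p = 0.0583), short of the threshold.

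Synaptic adhesion genes held 2 of the 4 falls. Nrxn3 (ENSMUSG00000066392, chr12:88722701-90334935) was at 383, 411, 316, 375 and 375 CPM in control libraries and at 170.3, 207 and 302 CPM in epileptic sgLacZ libraries, below every control library, with a log2 fold change of -0.78 (SE 0.20, adjusted p = 0.0347). Nlgn3 (ENSMUSG00000031302, chrX:101299179-101321350), found at both excitatory and inhibitory synapses, was at 103, 99.8, 92.2, 99.4 and 101 CPM in control and 43.1, 72.7 and 89.4 CPM in epileptic sgLacZ libraries (log2 fold change -0.50, SE 0.15, adjusted p = 0.0461). Here too the groups did not overlap. Nlgn1, of excitatory synapses, was also lower in every epileptic sgLacZ library (77.2 ± 3.33 against 61.2 ± 3.86 CPM, SD, n = 5 and 6) but was not called (log2 fold change -0.33, adjusted p = 0.0793), and Nlgn2, of inhibitory synapses, had the opposite sign (0.48, adjusted p = 0.0597). Nrxn2, Lrrtm1 and Lrrtm2 were at 0.23, 0.06 and 0.13, none of them called. In all, 5 members (Dlgap1, Ppp3ca, Nlgn1, Nlgn3 and Nrxn3) were lower in each epileptic sgLacZ library than in each control library and 0 were higher, beside 2.4% and 2% of all genes (4.39% in either direction). The 0 depends on the scale: with CPM scaled by reads in genes only, or from summed strand counts, 1 member, Nrxn2, was higher without overlap.

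Of the 7 regulators of small GTPases and actin 6 had positive values, and Iqsec1 and Iqsec2, exchange factors for the GTPase Arf6, were called. Iqsec2 (ENSMUSG00000041115, chrX:152144183-152225237) was at 48.8, 49.9, 67.1, 58.6 and 63.7 CPM in control and 55.9, 113 and 242 CPM in epileptic sgLacZ libraries (log2 fold change 1.13, SE 0.34, adjusted p = 0.0427). Iqsec1 (ENSMUSG00000034312, chr6:90659596-90988480) was at 107, 113, 122, 117 and 144 CPM in control and 123, 155 and 244 CPM in epileptic sgLacZ libraries (log2 fold change 0.46, SE 0.14, adjusted p = 0.0446). Kalrn and Trio were at 0.44 and 0.31, Sipa1l1 at 0.38, Cyfip2 of the actin-nucleating WAVE complex at 0.32, and Baiap2 (IRSp53), the exception in sign, at -0.38; their adjusted p ran from 0.0609 to 0.159.

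Calls in both directions were also made among other genes of the postsynaptic density. Of 48 other genes of this compartment 46 were tested, 5 were called higher and 5 lower, beside 11% of all genes called, with a median log2 fold change of 0.19. Among those with the smallest p were the adhesion genes Lrrtm4 (-0.91, adjusted p = 0.0320) and Lrrc4c (-0.38, 0.0365), which were lower, and Lrfn2 (0.56, 0.0355) and Sipa1l3 (0.64, 0.0438), which were higher.

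The size of these differences varied greatly between epileptic sgLacZ libraries, and it varied with read mapping. Taking the mean log2 level of the 6 called-higher members less its control mean, epileptic sgLacZ replicate 4 stood at 1.69, replicates 9, 7 and 6 at 1.19, 1.15 and 0.71, replicate 8 at 0.43 and replicate 5 at 0.01. The 4 called-lower members stood at -1.03 in replicate 4 and at -0.20 in replicate 5. Over the same 6 libraries the share of unmapped reads was 11.0% in replicate 4, 15.8% in 7, 17.2% in 9, 19.5% in 6, 23.8% in 8 and 24.1% in 5. The library with the fewest unmapped reads thus had the largest departures, and the library with the most had values near those of control mice. These levels belong to members chosen for differing between the 2 groups and are given as a description. In sgKcna1 replicate 12, with 41.5% unmapped, both sets lay on the far side of the control mean, at -0.45 and 0.53.

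**Figure D2:**
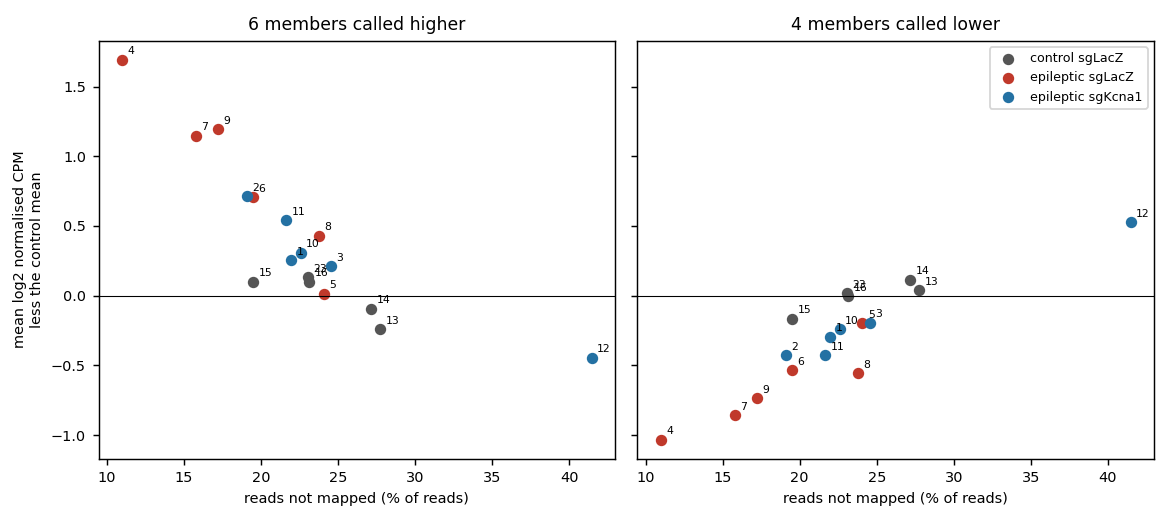
Mean log2 normalised CPM of the 6 members called higher (left) and the 4 called lower (right) in epileptic sgLacZ against control, less the control mean, plotted against the percentage of unmapped reads in each of the 17 libraries. Numbers are replicates. Replicate 4 of epileptic sgLacZ, at 11.0% unmapped, is farthest from 0 on both panels, and sgKcna1 replicate 12, at 41.5%, lies on the opposite side of 0.

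With the share of unmapped reads as a covariate 4 of the 10 calls remained, Shank3 at 0.69, Nrxn3 at -0.52, Ppp3ca at -0.46 and Dlgap1 at -0.30 (adjusted p between 0.0394 and 0.0463). Base composition moved with the calls as well. The longest coding transcripts of the 6 higher members held 55.3% to 62.4% G and C and those of the 4 lower members 45.4% to 50.9%. Those of the 31 members not called ran from 38.5% to 63.9%, across both ranges, with a median of 52.65%. Of all genes split into 5 equal bins of G and C content the richest bin had a median log2 fold change of 0.19 and the poorest -0.09. With a correction for GC content in each library 5 of the 10 calls remained (Shank3 1.15, Homer3 1.10, Dlgap2 1.07, Nrxn3 -0.75 and Dlgap1 -0.49). With sex as a covariate 4 did (Shank3 1.24, Homer3 1.175, Nrxn3 -0.85 and Dlgap1 -0.49). The calls lost in that fit included Iqsec2 and Nlgn3, both on the X chromosome. The part of mapping, base composition and sex in these differences was not tested beyond these fits. The calls also depended on single libraries. In 7 of the 17 fits that leave out 1 library no member and no other gene was called. These fits left out control 13, 14, 16 or 23, or epileptic sgLacZ 4, 7 or 9. The adjusted p of the 10 stayed at or under 0.113 there. Over the 17 fits the count of all genes called ran from 0 to 5534 of 17615, beside 1940 with all libraries. Without epileptic sgLacZ replicate 5 there were 21 member calls. There were 20 without sgKcna1 replicate 12, which enters this comparison only through the shared estimate of spread and the scaling. The 6 libraries that hold both Xist and Y-linked reads were 2 of 5 control, 1 of 6 epileptic sgLacZ and 3 of 6 sgKcna1 libraries. Without them 0 members and 0 genes were called, and the part of the smaller groups in this was not tested. Without epileptic sgLacZ replicate 4 and sgKcna1 replicate 12 together 16 members were called. The sign of the 10 members did not change in any of the 270 values over all alternative fits. Of 54 cell type markers 7 were called in the same comparison, 13% beside 11% of all genes: 2 of 9 pan-neuronal markers were lower, 2 of 6 astrocyte markers, 1 of 6 microglial, 1 of 5 excitatory neuron and 1 of 6 hippocampal field markers were higher, and 0 of 6 inhibitory neuron, 0 of 6 oligodendrocyte, 0 of 5 vascular and 0 of 5 choroid plexus and ependymal markers were called. At an unadjusted p under 0.05 there were 9 of the 54 markers higher and 9 lower, beside 18.8% and 15.9% of all genes. Of the 6 inhibitory neuron markers 0 were higher and 3 lower, and of the 9 pan-neuronal 1 and 4. Of the 6 astrocyte markers 3 were higher and 0 lower, and of the 6 field markers 2 and 0. The median log2 fold change was -0.25 for inhibitory neuron, -0.19 for pan-neuronal and 0.25 for astrocyte markers. Summed levels in control and epileptic sgLacZ libraries ran from 7413 to 8051 and from 6304 to 7488 CPM for pan-neuronal, from 1029 to 1352 and from 1220 to 1981 for excitatory, from 324 to 448 and from 415 to 614 for field, from 1224 to 1532 and from 819 to 1379.7 for inhibitory, from 2005 to 2365 and from 2291 to 3039 for astrocyte, and from 281 to 329.9 and from 243 to 419 for microglial markers. They ran from 6523 to 9411 and from 4941 to 7248 CPM for oligodendrocyte, from 183 to 254 and from 141 to 257 for vascular, and from 1212 to 12540 and from 4423 to 11462 for choroid plexus and ependymal markers. No tested marker had a mean of 0, the lowest mean being 2.81 CPM for a field marker. The part of cell composition in the members' differences was not tested.

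**Figure D3:**
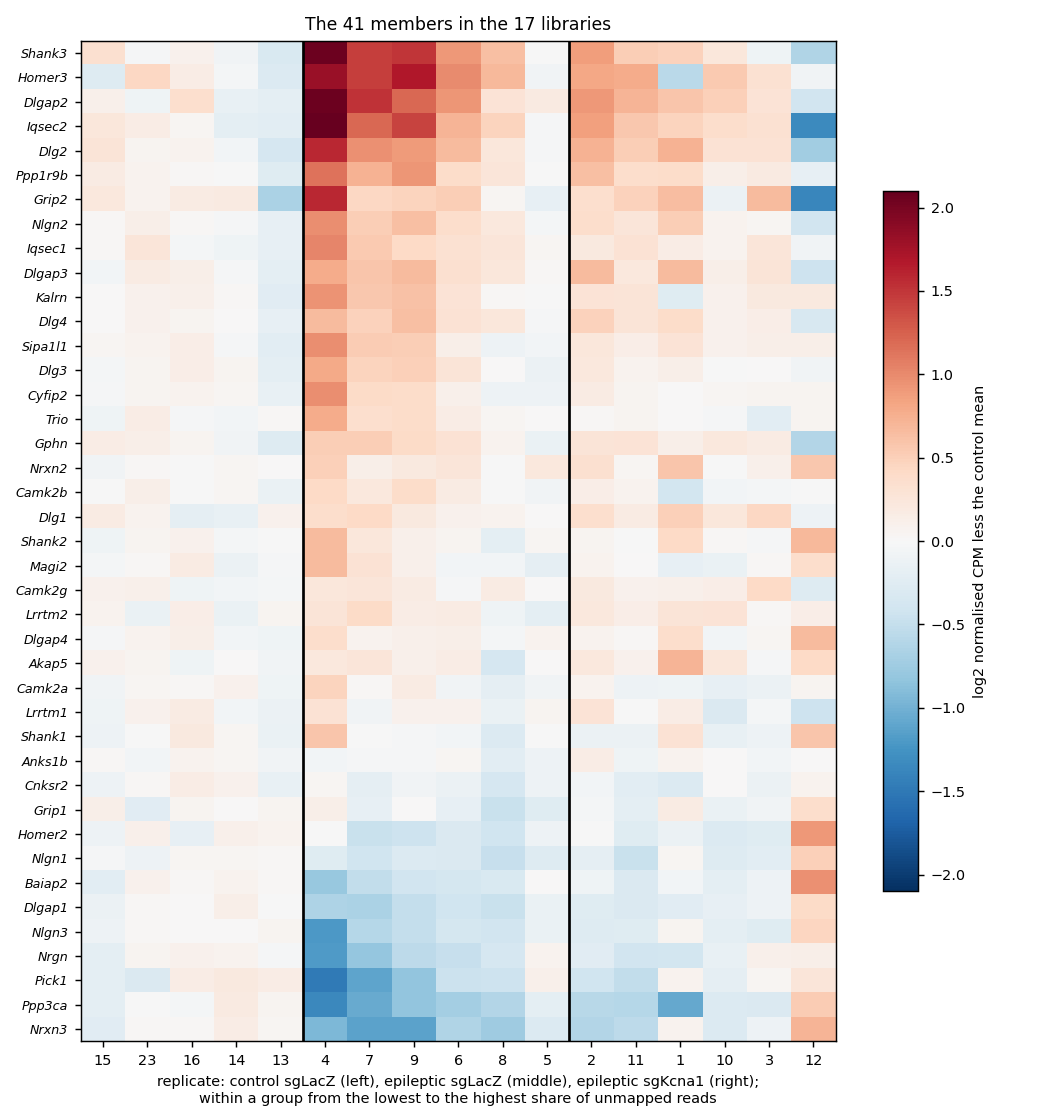
Log2 normalised CPM of the 41 members in the 17 libraries, less the mean of the control libraries, with red above and blue below. Rows run from the highest to the lowest log2 fold change in epileptic sgLacZ against control, and libraries of a group run from the lowest to the highest share of unmapped reads. For the 10 called members sgKcna1 replicate 12 lies on the other side of the control mean from epileptic sgLacZ replicate 4, whereas of the 31 others 14 lie on the same side in both.

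The comparison of epileptic sgKcna1 with epileptic sgLacZ mice asks what activating Kcna1 does in the epileptic hippocampus. No member was called, and neither was any other gene (0% of 17615). At an unadjusted p under 0.05 there were 8 members higher and 8 lower, beside 8.69% and 10.5% of all genes (19.2% in all). Ranked by p the first members, of which none passed the threshold, were Nrxn3 (0.72, SE 0.19), Shank3 (-0.93, SE 0.28), Dlgap1 (0.37, SE 0.12), Homer3 (-0.84, SE 0.28), Nlgn3 (0.44, SE 0.15) and Trio (-0.32, SE 0.11), all at an adjusted p of 0.213. DESeq2, on the same genes, called 134 genes and 1 member, Nrxn3 (0.73, adjusted p = 0.0457), and limma voom called 12 genes and 0 members.

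Shank3 lay at 48.3, 95.9 and 137 CPM (lowest, median, highest) in sgKcna1 libraries, and Nrxn3 at 243, 324 and 608 CPM. Dlgap1 was at 664, 708 and 1079 CPM, Homer3 at 6.77, 13.6 and 17.6, Nlgn3 at 81.8, 84.3 and 135 and Trio at 90.0, 106 and 109 CPM. All 6 overlapped the epileptic sgLacZ libraries, as did the other 35 members, beside 0.483% of all genes that did not overlap (0.238% higher and 0.244% lower). Replicate 12 of sgKcna1 was the highest of its 6 libraries for 15 members and the lowest for 15 others, with Nrxn3 at 608 CPM and Shank3 at 48.3 CPM. Without it the log2 fold change of Nrxn3 was 0.50 and still not called (adjusted p = 0.25). In 16 of the 17 fits that leave out 1 library 0 members were called. Without epileptic sgLacZ replicate 5, in contrast, 9 members were called, among 1504 of 17615 genes. Nrxn3, Dlgap1, Nlgn3, Pick1 and Nrgn were higher, and Shank3, Homer3, Dlgap2 and Trio were lower. In its group replicate 5 was the lowest library for the 6 called-higher members and the highest for the 4 called-lower members.

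Against control mice, the epileptic sgKcna1 mice had no called member and no called gene (0%), while DESeq2 called 39 genes, limma voom 71, and each of them 0 members. Unadjusted, 3 members were higher and 0 lower, beside 4.29% and 2.48% of all genes (6.77% in all): Nrxn2 (0.29, SE 0.12), Dlg1 (0.27, SE 0.11) and Akap5 (0.30, SE 0.13), with adjusted p from 0.695 to 0.711. In none of the 41 were the sgKcna1 and control libraries without overlap, beside 1.14% of all genes (0.562% higher and 0.573% lower). The 3 next in order of p were Dlgap3 (0.29), Dlgap4 (0.21) and Lrrtm2 (0.18). With unmapped reads as a covariate 1 member was called, Dlg2 (0.39, adjusted p = 0.0491). The 41 values ran from -0.30 (Ppp3ca) to 0.48 (Dlgap2), with a median of 0.10. For the 10 members called in epileptic sgLacZ mice, the values in sgKcna1 against control were 0.29 for Shank3, 0.36 for Homer3, 0.48 for Dlgap2, 0.34 for Iqsec2, 0.27 for Ppp1r9b, 0.15 for Iqsec1, -0.06 for Nrxn3, -0.30 for Ppp3ca, -0.06 for Nlgn3 and -0.09 for Dlgap1. These values rest in part on sgKcna1 replicate 12. Without it, and with none called, they were -0.28 for Nrxn3, -0.56 for Ppp3ca, -0.19 for Nlgn3 and -0.22 for Dlgap1 (adjusted p from 0.145 to 0.441), and 0.41 for Shank3, 0.43 for Homer3, 0.59 for Dlgap2, 0.51 for Iqsec2, 0.34 for Ppp1r9b and 0.18 for Iqsec1 (0.269 to 0.476). On the mean log2 level less the control mean, the 6 called-higher members were at 0.26 ± 0.40 (SD, n = 6) in sgKcna1 libraries and at 0.41 ± 0.21 (n = 5) without replicate 12, and the 4 called-lower members at -0.18 ± 0.36 and -0.32 ± 0.11. The 3 comparisons share libraries, and the difference between the epileptic groups was the one tested above and not called.

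**Figure D4:**
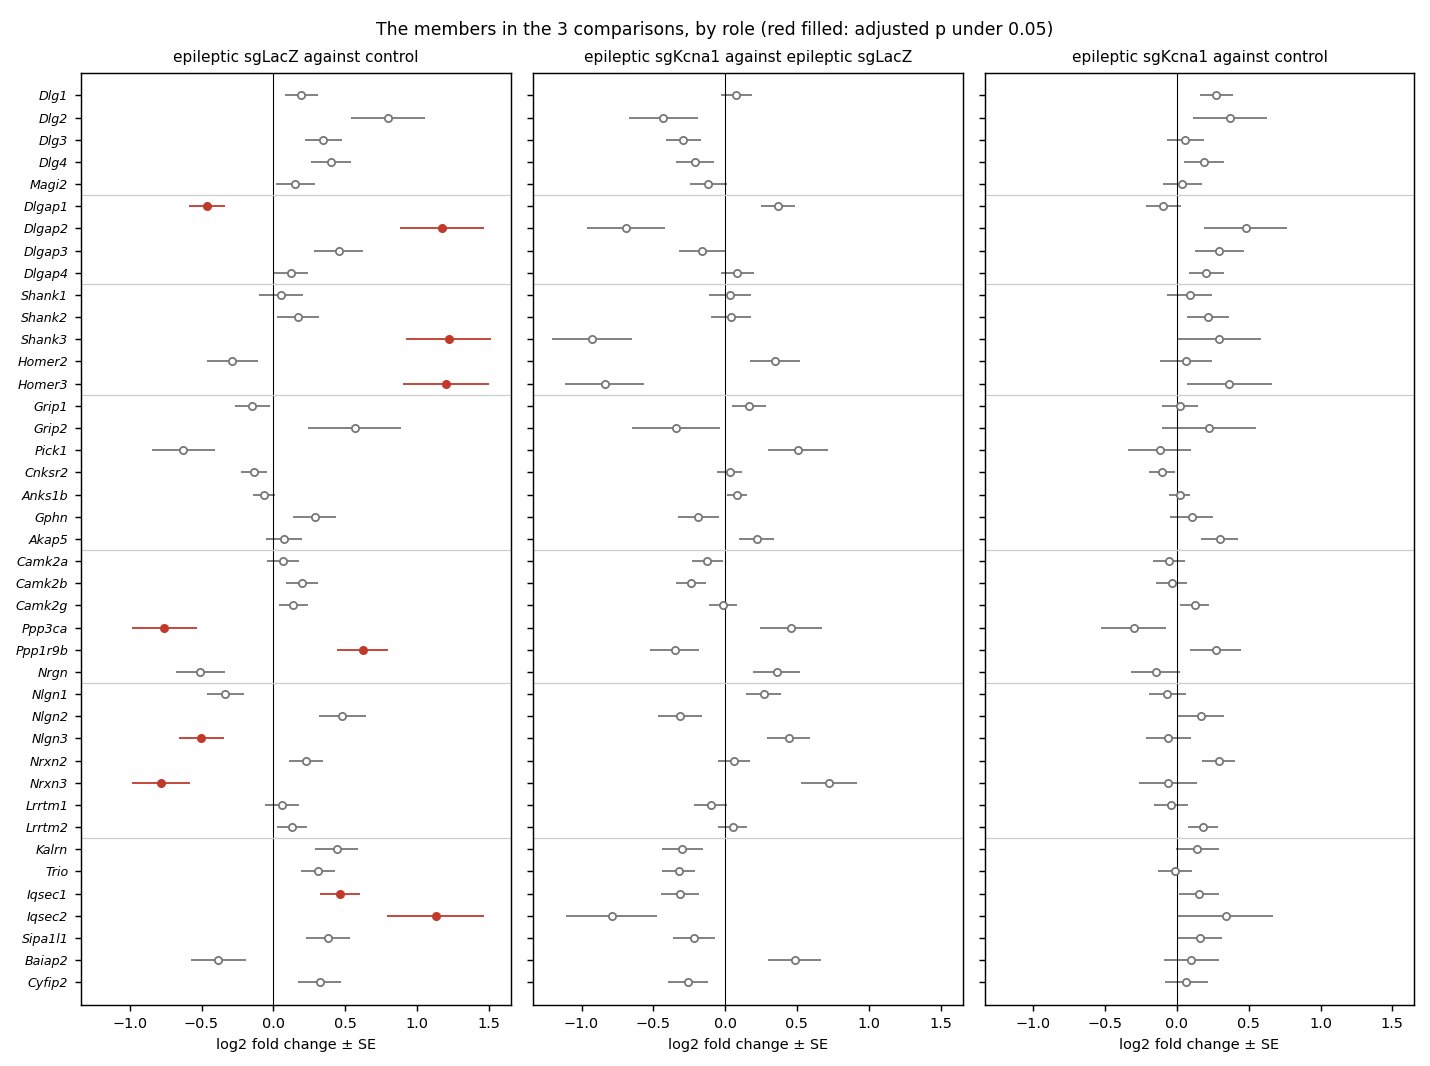
Log2 fold change with its standard error for the 41 members in the 3 comparisons, with the members grouped by role between grey lines and called members filled in red. The 10 called members are red in epileptic sgLacZ against control and 0 in both comparisons of sgKcna1 mice, and the comparisons share libraries.

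Averaged over the 41 members, the log2 level relative to the control mean was 0.14 ± 0.19 (SD, n = 6) in epileptic sgLacZ libraries, from -0.07 in replicate 8 to 0.44 in replicate 4. Without replicate 4 it was 0.08 ± 0.14 (n = 5), and with CPM scaled by reads in genes only it was 0.21 ± 0.22 (n = 6). In sgKcna1 libraries it was 0.08 ± 0.06 (n = 6), from 0.01 to 0.18. The control libraries themselves ranged from -0.11 to 0.06.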

How the data were processed

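Reads had been aligned by the study to the mm10 mouse genome with STAR (version 2.7 per the submitters' processing notes). The authors deposited raw read counts per gene for each library, unnormalised, as unstranded and as strand-specific counts; reads with several mapping places are not in them, and the annotation release is not given in the sources used here. The unstranded counts were used, since both strands held nearly equal reads (ratio 0.994 to 0.998). The labels name a kit without strand information and the study's methods a stranded kit.

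The main fit used edgeR 4.0.16 (R 4.3.3) with filterByExpr by group (17615 genes), TMM scaling and a term for each of the 3 groups over all 17 libraries, without covariates. The test was checked on simulated counts. The labels do not say that each sample is a separate mouse, so p-values measure the spread between samples, which may be partly technical; replicate pairs differed by 8.67 to 220.2 times sampling noise, and none was merged. Alternatives were DESeq2 1.42.0, limma 3.58.1 voom, other scaling, no filter, summed strand counts, covariates, and leaving out libraries. A GC correction and 2 removals of several libraries were added after the data had been seen. Symbols, coordinates and promoter windows are those of RefSeq GRCm38.p6, and exon length and GC content came from an older mm9 annotation (GC known for 83.0% of tested genes and all 41 members). Magi2 has 2 identifiers, and the 1 with 20929 reads, not 12, was used. For an overlapping gene the limit was 5% between summed strand and unstranded counts.

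The members and lists were chosen with earlier results of these data known. Every called member (adjusted p under 0.05, at most 12) is described in full, or otherwise the 6 members of smallest p. Of the other postsynaptic list the genes named are those among the 6 of smallest p, other than some not reported here.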

Additional observations from a re-analysis of the deposited data

Results flagged for a closer look

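In 12 of 123 sets of 5 or 6 libraries (41 members in 3 groups) the highest or lowest library stood far from the rest of its group, where about 1 in 20, or 6.15, would by chance. Of these, 6 were sgKcna1 replicate 12, the library with 41.5% unmapped reads. It was low for Dlg2 (49.1 CPM, the others 100.9 to 134.9), Gphn (31.2, the others 51.7 to 58.5) and Iqsec2 (22.6, the others 71.1 to 104.3), and high for Dlgap1 (1079, the others 664 to 760), Homer2 (121.2, the others 52.9 to 64.0) and Baiap2 (901.3, the others 376 to 444). Epileptic sgLacZ replicate 4, with 11.0% unmapped, was high for Shank1 (472.1 CPM, the others 258 to 314). Control replicate 13 was low for Grip2 (3.19 CPM, the others 5.36 to 5.94) and Kalrn (232, the others 276 to 295), and control replicate 15 was low for Baiap2 (396, the others 472 to 496). Of the sgKcna1 libraries, replicate 1 was also low for Kalrn (230 CPM, the others 290 to 333) and replicate 3 for Trio (89.96, the others 103 to 109).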

How the results depend on the processing

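In epileptic sgLacZ against control, 1940 genes and 10 members (6 higher, 4 lower) were called. DESeq2 called 3634 genes and 16 members (10 higher), and limma voom with sample quality weights 7301 and 26 (17 higher, 9 lower). The unmapped-read covariate left 428 genes and 4 members (1 higher), the sex covariate 516 and 4 (2 higher, 2 lower), and the GC correction 1051 and 5 (3 higher, 2 lower). Without the 6 libraries with both Xist and Y-linked reads the counts were 0 genes and 0 members (0 higher, 0 lower), and without sgKcna1 replicate 12 and epileptic sgLacZ replicate 4 together they were 3061 and 16 (7 lower). DESeq2 size factors, no filter and summed strand counts kept each count within 1.5 times. Leaving out 1 library gave from 0 to 5534 genes and from 0 to 21 members (0 to 15 higher, 0 to 9 lower); the count was 0 without control 13, 14, 16 or 23 or epileptic sgLacZ 4, 7 or 9, was 2 without control 15, 5 without epileptic sgLacZ 6, sgKcna1 3 or sgKcna1 10, and rose to 20 without sgKcna1 12 and 21 without epileptic sgLacZ 5. The smallest adjusted p of any member in the fits with none called was 0.0522. The sgKcna1 libraries enter this comparison only through the shared estimate of spread and the scaling. Without sgKcna1 12 the log2 fold change was 1.22 for Shank3 and -0.79 for Nrxn3, beside 1.22 and -0.78 with all libraries. The cause of the shifts with other libraries left out was not tested. Uncalled members near 0 changed sign. With 1 library left out Shank1 ran from -0.078 to 0.12 and Camk2a from -0.027 to 0.12. Shank1 moved to -0.056 with voom, -0.087 with summed strand counts, -0.019 with the sex covariate, -0.0099 with the GC correction and -0.078 without epileptic sgLacZ 4, alone or together with sgKcna1 12. Camk2a moved to -0.0036 with the GC correction and -0.027 in the same 2 fits. Lrrtm1 moved to -0.075 with the unmapped-read covariate and -0.031 with the GC correction. Grip2 moved to -0.040 with the unmapped-read covariate.

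In sgKcna1 against epileptic sgLacZ the 0 genes became 134 with DESeq2 (1 member, higher), 12 with voom, 1 with no filter and 1 with the GC correction, and from 0 to 1504 when 1 library was left out, the highest without epileptic sgLacZ 5, with from 0 to 9 members called (0 to 5 higher, 0 to 4 lower). In sgKcna1 against control the 0 genes became 39 with DESeq2, 71 with voom, 266 with the unmapped-read covariate (1 member, higher), 108 without both outlying epileptic libraries and from 0 to 14 when 1 library was left out. When CPM was scaled by reads in genes only or came from summed strand counts, 1 more member, Nrxn2, no longer overlapped control libraries, both in sgKcna1 and in epileptic sgLacZ mice. The mean level of the members, 0.14 in epileptic sgLacZ and 0.08 in sgKcna1 mice, moved by less than 1 SD with another prior count, scaling or count column, although in epileptic sgLacZ mice it was 0.21 when scaled by reads in genes only and 0.08 without replicate 4. No paired analysis was possible because the groups share no replicate numbers. Depth limits the lowest members, Grip2 and Dlgap2, most.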
